A study of Homo sapiens with 6 samples.

Results

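NRF2, the protein product of NFE2L2, is the main transcription factor of the antioxidant response. KEAP1 and the CUL3 ubiquitin ligase keep its protein level low, and under oxidants or electrophiles the protein escapes degradation, pairs with a small MAF protein and binds antioxidant response elements in the promoters of its target genes. BACH1 is a repressor that occupies the same elements and is released by heme. The targets make glutathione, recycle thioredoxin and peroxiredoxins, detoxify quinones, degrade heme and store iron, and the pathway is active in many tumours.

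NFE2L2 and 8 genes known as its targets were followed in HCT116, an established human colorectal carcinoma cell line. They were taken by symbol from the 60662 genes with a deposited value and were NFE2L2, HMOX1, NQO1, GCLC, GCLM, TXNRD1, SRXN1, FTL and FTH1. All 9 were found and all passed the filter on low values, as 9 of 16901 genes tested. The control cells carried a non-targeting hairpin (shCtrl, genotype given as WT), and the other cells carried GMDS-AS1 shRNA2 (genotype given as GMDS-AS1 knockdown, KD). Both groups were HCT116 cells stably transduced with a lentiviral pLKO.1 puromycin plasmid, and no other treatment is named. Each group had 3 poly-A selected RNA-seq libraries called biological replicates. Nothing states that they came from separate transductions, so the p-values measure only the spread between these libraries, and the KD rests on 1 hairpin in 1 cell line.

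GMDS-AS1, listed under the symbol GMDS-DT, stood at 1.66, 2.21 and 1.34 TPM with shCtrl, against 0.88, 0.91 and 0.79 TPM in the KD. Every KD library lay below every shCtrl library (log2 fold change -0.41, SE 0.14, adjusted p = 0.0407 by limma). TPM, the deposited expression value, divides by transcript length and library total and keeps no read number, so the depth of the libraries is unknown. Across genes, Pearson's r of log2(TPM + 1) was 0.987 to 0.988 within the groups and 0.975 to 0.976 between them, and no library stood apart. Epithelial EPCAM, KRT8, KRT18, KRT19 and CDH1 were expressed in every library, whereas VIL1 did not exceed 0.41 TPM. KRT8, KRT18 and KRT19 fell in the KD (log2 fold changes of -1.46, -1.83 and -0.26, adjusted p = 1.73e-07, 7.21e-08 and 1.6e-04 by limma). Of the markers of other cell types, PTPRC was listed at 0 in all libraries and CD3E, COL3A1, PECAM1 and ALB did not exceed 1.16 TPM, while COL1A1 lay between 10.04 and 14.42 TPM. In bulk RNA, fewer cells of a type and less RNA per cell cannot be told apart.

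The hairpin itself is shown because the part of its guide strand that pairs like a microRNA seed could match other transcripts. Bases 2 to 8 of the guide are in capitals:
GMDS-AS1 shRNA2 guide: tTACCATCtatctgtggtctt
The complement of this seed, GATGGTA, was present in the annotated 3' UTR of 845 of 12817 genes (6.59%) and in none of the 9 genes. The corresponding site of the sense strand, GTGGTCT, was present in 9.57% of genes and also in none of the 9. With shares this small, finding no site among 9 genes is a likely result. Effects of the hairpin on other transcripts were not tested.

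The 9 genes moved in both directions. HMOX1, TXNRD1, NQO1 and FTL rose in the KD, NFE2L2 and SRXN1 fell, and FTH1 and GCLM did not pass the test. GCLC rose slightly after scaling, but its direction turned with TPM as deposited. Changes are given as log2 fold changes of scaled TPM + 1, KD minus shCtrl, tested with limma over all genes with Benjamini-Hochberg adjustment at 0.05. The scaling used a trimmed mean, which brought the median log2 fold change of all genes to -0.00. Without scaling between libraries this median was -0.20. The scaling factors were lower in the KD by 0.25 (log2), so a rise smaller than about 0.25 can turn when the scaling is left out. Of the 9 genes, 7 passed the test, against 54.3% of all genes tested. The 5 that rose stand beside 28.5% of all genes, and the 2 that fell beside 25.9%. Passing the test was thus common in this comparison, and the direction and size of each gene's change say more than the count. When a fold change of at least 2 was also required, HMOX1 was the 1 gene left, against 7.17% of all genes in either direction, 2.93% that rose and 4.24% that fell. With TPM as deposited, 4 of the genes rose and 2 fell, against 16.3% and 40.3% of all genes. The TPM ranges of the groups did not overlap for 6 of the 9 genes, which was the case for 63.7% of all genes tested. The median log2 fold change over the 9 genes was 0.30.

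**Figure D1:**
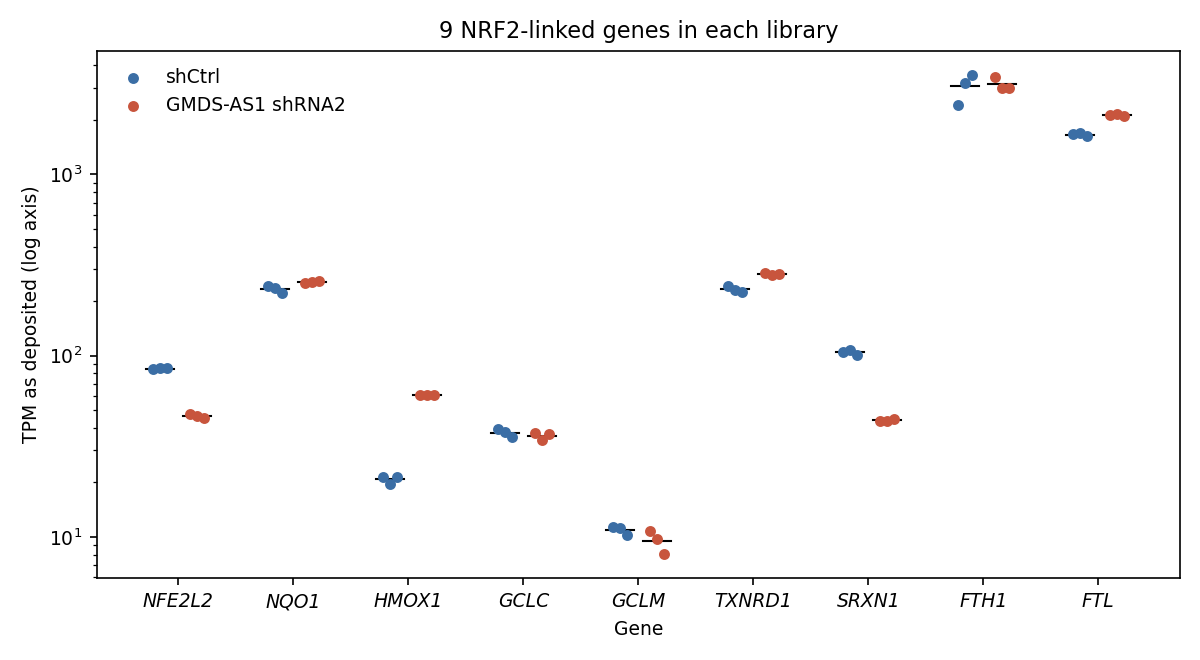
TPM as deposited (log axis) of the 9 genes in each of the 6 libraries, shCtrl in blue and GMDS-AS1 shRNA2 in red, with a line at each group mean. HMOX1 lies higher and NFE2L2 and SRXN1 lower in all 3 KD libraries, whereas the groups overlap for GCLC, GCLM and FTH1.

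The level of NFE2L2 RNA fell. NFE2L2 (ENSG00000116044, chr2:177227595-177392697 of GRCh38, minus strand) was at 84.32, 85.16 and 85.35 TPM with shCtrl, against 47.73, 46.40 and 45.43 TPM in the KD. All KD libraries were lower than all shCtrl libraries, and the gap was far wider than the spread within either group (84.94 ± 0.548 against 46.52 ± 1.16 TPM, SD, n = 3 each). The log2 fold change was -0.61 (SE 0.035, adjusted p = 1.42e-05 by limma), and -0.86 with TPM as deposited. NFE2L2 ranked 2182nd among the 16901 genes from the lowest fold change. AGPS, which overlaps NFE2L2 on the opposite strand, had a value near 0 after scaling (-0.03 on the log2 scale, adjusted p = 0.733 by limma). In TPM as deposited, AGPS was at 48.53, 48.34 and 49.42 with shCtrl, against a lower 38.17, 38.09 and 44.87 in the KD. AC019080.1, which overlaps NFE2L2 on the same strand at 1.57 to 5.11 TPM, fell like NFE2L2 (log2 fold change -0.61, adjusted p = 0.027 by limma). Whether the counting used strand is not given in the sources used here, so reads of overlapping genes cannot be told apart. NRF2 protein was not measured.

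HMOX1 gave the largest change of the 9 genes. HMOX1 (ENSG00000100292, chr22:35380361-35394214, plus strand) encodes the inducible heme oxygenase, which breaks heme down to biliverdin, carbon monoxide and free iron. It was at 21.48, 19.59 and 21.39 TPM with shCtrl, against 60.97, 60.49 and 60.49 TPM in the KD. The KD libraries were nearly alike and all were higher than every shCtrl library, with a TPM ratio of the means of 2.91. The log2 fold change was 1.74 (SE 0.049, adjusted p = 1.07e-06 by limma) and was 1.5 with TPM as deposited. HMOX1 ranked 61st of 16901 genes from the highest fold change, far ahead of FTL (1834th), TXNRD1 (2387th) and NQO1 (3677th).

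NQO1 and TXNRD1 rose by less. NQO1 (ENSG00000181019, chr16:69706996-69726951, minus strand), the quinone reductase often read as a measure of NRF2 activity, was at 242.84, 235.92 and 223.10 TPM with shCtrl, against 252.32, 255.40 and 258.05 TPM in the KD. Every KD library was above every shCtrl library, but the closest libraries of the 2 groups were near each other. Its log2 fold change was 0.37 (SE 0.031, adjusted p = 8.14e-05 by limma), and only 0.13 with TPM as deposited (adjusted p = 0.0204 by limma).

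TXNRD1 (ENSG00000198431, chr12:104215779-104350305, plus strand) encodes the cytosolic selenoenzyme that uses NADPH to reduce thioredoxin. Its levels were 241.92, 231.50 and 224.99 TPM with shCtrl, against 286.50, 277.25 and 281.85 TPM in the KD. The groups did not overlap, and the log2 fold change was 0.52 (SE 0.029, adjusted p = 1.26e-05 by limma) or 0.28 with TPM as deposited. An antisense gene inside its span, AC089983.1, went the other way at 4.4 to 11.32 TPM (log2 fold change -0.56, adjusted p = 0.0191 by limma).

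SRXN1 fell while TXNRD1 rose. SRXN1 (ENSG00000271303, chr20:646615-653370, minus strand) encodes sulfiredoxin, the enzyme that restores over-oxidized peroxiredoxins. It was at 104.62, 107.79 and 101.11 TPM with shCtrl, against 43.56, 43.48 and 44.94 TPM in the KD. All KD libraries were lower than all shCtrl libraries, and the TPM ratio of the means was 0.421. The log2 fold change was -0.99 (SE 0.032, adjusted p = 1.52e-06 by limma), just short of a 2-fold fall, and -1.23 with TPM as deposited. SRXN1 ranked 778th from the lowest fold change. The ratio of TXNRD1 to SRXN1 TPM within a library, which no scaling between libraries can alter, was 2.31, 2.15 and 2.23 in the shCtrl libraries and 6.58, 6.38 and 6.27 in the KD libraries. This ratio was 2.88 times as high in the KD and the groups did not overlap, at an exact permutation p of 0.1, two-sided, the smallest that 3 against 3 libraries allow.

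**Figure D2:**
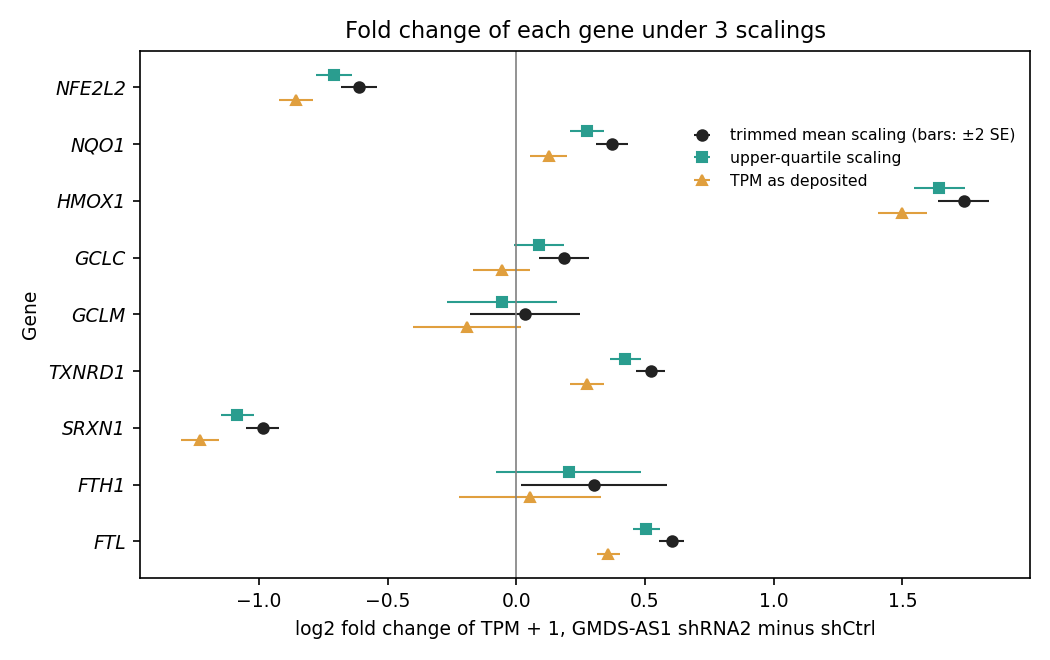
Log2 fold change of TPM + 1 (GMDS-AS1 shRNA2 minus shCtrl) of each gene under trimmed mean scaling, upper-quartile scaling and TPM as deposited, with bars of ±2 SE on every marker. HMOX1, TXNRD1, NQO1 and FTL lie above 0 and NFE2L2 and SRXN1 below 0 under all 3, while GCLC and GCLM cross 0.

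The genes for the first step of glutathione synthesis changed little. GCLC (ENSG00000001084, chr6:53497341-53616970, minus strand) encodes the catalytic subunit of glutamate-cysteine ligase and was at 39.43, 37.87 and 35.69 TPM with shCtrl, against 37.40, 34.19 and 37.01 TPM in the KD. The groups overlapped in TPM. GCLC passed the test after scaling (log2 fold change 0.19, SE 0.048, adjusted p = 0.0154 by limma) but was at -0.06 with TPM as deposited (adjusted p = 0.426 by limma) and at 0.09 with upper-quartile scaling (adjusted p = 0.168 by limma), so its direction rested on the scaling. GCLC also lost the call without shCtrl replicate 2 (adjusted p = 0.0626 by limma) and without shCtrl replicate 3 (adjusted p = 0.0765 by limma).

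GCLM (ENSG00000023909, chr1:93885205-93909456, minus strand) encodes the modifier subunit of the same enzyme. It was at 11.42, 11.16 and 10.30 TPM with shCtrl, against 10.76, 9.73 and 8.07 TPM in the KD. The groups overlapped, with KD replicate 3 lowest of all, and the log2 fold change of 0.03 did not pass the test (SE 0.106, adjusted p = 0.816 by limma). With TPM as deposited it was -0.19 (adjusted p = 0.161 by limma). The GCLM to GCLC ratio was 0.290, 0.295 and 0.289 in the shCtrl libraries and 0.288, 0.285 and 0.218 in the KD libraries. The groups did not overlap in this ratio, but KD replicates 1 and 2 lay close to the shCtrl libraries (exact permutation p = 0.1, two-sided, the smallest possible here).

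Promoter windows of 250 bases before and 50 bases after the start site were searched for TGACNNNGC, the core of the antioxidant response element, on both strands. RefSeq windows of build GRCh38.p14 were at hand for 7 of the 9 genes, not for HMOX1 or FTH1. The core was present in 13.3% of 35116 windows of all genes, and in 3 of 9 windows of these genes, 1 of GCLM and both of TXNRD1. The stretches around the matches are shown in the direction of the gene with the core in capitals, and where the match was on the opposite strand the capitals are its complement:
GCLM chr1:93909446-93909474, minus strand: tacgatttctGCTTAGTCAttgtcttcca
TXNRD1 upstream start, chr12:104215670-104215698, plus strand: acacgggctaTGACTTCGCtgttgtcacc
TXNRD1 upstream start, chr12:104215761-104215779, plus strand: gcgtccttcgGCTCCGTCA
TXNRD1 downstream start, chr12:104286920-104286948, plus strand: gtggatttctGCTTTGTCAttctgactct
The GCLM match began at position -34 and the TXNRD1 matches at -99 and -8 of the upstream start and at -102 of the downstream start, counted from 0 at the start-site base. GCLM did not pass the test and TXNRD1 rose, and the genes with a match were too few to relate a match to a change. A match is a description of letters and not of binding, and elements farther from the start are outside these windows.

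Of the ferritin subunits, FTL rose and FTH1 did not pass the test. FTL (ENSG00000087086, chr19:48965301-48966878, plus strand), the light chain that aids mineral formation inside the ferritin shell, was at 1666.27, 1682.97 and 1627.33 TPM with shCtrl, against 2133.11, 2153.31 and 2090.11 TPM in the KD. All KD libraries were above all shCtrl libraries with a spread of under 2% of the mean in each group (CV of 1.72% and 1.52%). Its log2 fold change was 0.60 (SE 0.024, adjusted p = 3.23e-06 by limma), or 0.36 with TPM as deposited.

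FTH1 (ENSG00000167996, chr11:61959718-61967660, minus strand) encodes the heavy chain, which oxidizes iron for storage. It was at 2425.32, 3200.48 and 3548.94 TPM with shCtrl, against 3464.73, 2988.78 and 2980.01 TPM in the KD. The groups overlapped, and shCtrl replicate 1 was the lowest of all 6 libraries. The log2 fold change of 0.30 did not pass the test (SE 0.142, adjusted p = 0.117 by limma). It was 0.41 without shCtrl replicate 3 (adjusted p = 0.0394 by limma), 0.12 without shCtrl replicate 1 (adjusted p = 0.276 by limma) and 0.05 with TPM as deposited (adjusted p = 0.755 by limma).

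The spread of FTH1 was unusual for a gene of its level. Its CV among the shCtrl libraries was 18.8%, the highest of 131 protein-coding genes with a mean of at least 1000 TPM, whose median was 2.33%. Among the KD libraries it was 8.82%, with 1 of these genes above it and a median of 1.89%. Ferritin has many processed pseudogenes, among which reads can be split. Of 25 FTH1P genes listed, 17 had a value above 0, led by FTH1P3, and their sum was 2.78 to 4.19 TPM per library, at most 0.14% of FTH1. Of 16 FTLP genes, 4 were above 0, led by FTLP12, at most 0.0952% of FTL. Pseudogenes were sought by these symbols alone. Those listed without a symbol were not counted, so these sums do not bound how many reads were split. The FTH1 to FTL ratio was 1.46, 1.90 and 2.18 in the shCtrl libraries and 1.62, 1.39 and 1.43 in the KD libraries, which overlapped (exact permutation p = 0.2, two-sided). Together the ferritin RNAs made up 0.409%, 0.488% and 0.518% of all TPM in the shCtrl libraries and 0.560%, 0.514% and 0.507% in the KD libraries, which also overlapped.

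Ferritin synthesis is controlled mainly at translation, through an iron-responsive element in the 5' UTR of both mRNAs that iron regulatory proteins bind when iron is scarce. The elements are shown because RNA levels do not read this control. They are taken from GENCODE transcripts, with the loop CAGTGN in capitals:
FTH1 element, bases 59 to 88 of 235: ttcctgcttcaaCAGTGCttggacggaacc
FTL element, bases 35 to 64 of 207: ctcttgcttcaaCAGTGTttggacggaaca
The elements matched at 26 of 30 bases, and 25 bases around the loop differed at 1 base. Among 12657 genes with a 5' UTR searched, only FTH1 and FTL held this 25-base stretch with any letter at the differing base. The loop letters alone were in 24.9% of genes, NQO1 and GCLC among them. Ferritin protein was not measured.

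The order of levels shifted between the groups. TPM is per transcript length, so levels can be compared between genes. In shCtrl the order of mean TPM was FTH1, FTL, NQO1, TXNRD1, SRXN1, NFE2L2, GCLC, HMOX1 and GCLM, and the ranges of the neighbours NQO1 and TXNRD1 overlapped. In the KD the order was FTH1, FTL, TXNRD1, NQO1, HMOX1, NFE2L2, SRXN1, GCLC and GCLM, with no overlap between neighbours. HMOX1 moved from place 8 to place 5, and SRXN1 from place 5 to place 7.

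Genes with the most similar pattern were sought for HMOX1 and SRXN1, the largest rise and the largest fall, among 7570 protein-coding genes with a mean of at least 10 TPM over the 6 libraries. Likeness was the root mean square difference of log2 scaled TPM after each gene's shCtrl mean was subtracted. Nearest to HMOX1 were SH3GL1 (0.0315), HS1BP3 (0.0459) and DNAAF5 (0.0590). HS1BP3, at a mean of 5.09 TPM with shCtrl and 15.81 TPM in the KD, met the minimum only through the KD libraries. SH3GL1 was at 34.1, 32.67 and 33.94 TPM with shCtrl, against 96.24, 97.49 and 99.75 TPM in the KD. Nearest to SRXN1 were TINAGL1 (0.0203), TMEM181 (0.0294) and TMSB4X (0.0306).

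The RNA levels of genes whose proteins set NRF2 activity were next compared. Of 14 regulators and partners tested, 8 passed the test, 4 higher and 4 lower, with a median log2 fold change of 0.07. Over all genes tested, 54.3% passed, 28.5% higher and 25.9% lower, so this count lay near that of all genes. None reached a 2-fold change after scaling, whereas BACH1 (-1.14, adjusted p = 0.00207 by limma) and MAFF (-1.08, adjusted p = 9.73e-06 by limma) did with TPM as deposited. In that unscaled fit 3 of the 14 genes rose and 6 fell, against 16.3% and 40.3% of all genes. KEAP1, the adaptor that brings NRF2 to its ubiquitin ligase, rose from a range of 35.45 to 36.67 TPM to one of 42.14 to 44.17 TPM (log2 fold change 0.48, adjusted p = 3.19e-05 by limma). BTRC, the receptor of another ligase that degrades NRF2, fell (-0.68, adjusted p = 0.00248 by limma), and the KEAP1-binding phosphatase PGAM5 rose (0.97, adjusted p = 1.76e-05 by limma). SQSTM1, which draws KEAP1 into autophagy, was near 0 at -0.03 (adjusted p = 0.565 by limma) but at -0.27 with TPM as deposited (adjusted p = 0.00057 by limma).

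BACH1, the repressor, was at 17.43, 9.74 and 11.32 TPM with shCtrl, against 4.96, 5.43 and 4.94 TPM in the KD. All KD libraries were lower, but the shCtrl libraries themselves were widely spread. Its log2 fold change was -0.92 (SE 0.19, adjusted p = 0.00591 by limma). The small MAF genes went in different directions, as MAFF fell (-0.84, adjusted p = 2.64e-05 by limma), MAFK rose (0.72, adjusted p = 1.57e-05 by limma) and MAFG, at 0.47 to 2.17 TPM, did not pass the test (-0.29, adjusted p = 0.38 by limma).

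Of 24 further NRF2 targets, 22 were tested and 16 passed, 13 higher and 3 lower, against 54.3% of all genes tested, 28.5% higher and 25.9% lower. The median log2 fold change was 0.35. With TPM as deposited, 11 rose and 5 fell, against 16.3% and 40.3% of all genes. TKT, transketolase of the pentose phosphate pathway, was at 311.50, 318.81 and 301.82 TPM with shCtrl, against 537.87, 525.23 and 539.67 TPM in the KD (log2 fold change 1.03, adjusted p = 4.61e-07 by limma). TKT kept this direction and passed the test with TPM as deposited. ABCC2, an exporter of conjugates, rose by 1.34 (adjusted p = 1.89e-06 by limma), and OSGIN1, a growth inhibitor induced by oxidative stress, rose by 0.70 (adjusted p = 1.63e-04 by limma).

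SLC7A11, the cystine transporter that feeds glutathione synthesis, went against most of this list. It was at 22.17, 21.47 and 21.20 TPM with shCtrl, against 4.73, 5.59 and 4.83 TPM in the KD. Every KD library was far below every shCtrl library (log2 fold change -1.68, SE 0.077, adjusted p = 5.51e-06 by limma). SLC7A11 is also a known target of ATF4, whose part in this fall was not tested. UGDH, which makes UDP-glucuronate, fell as well (-0.64, adjusted p = 2.95e-04 by limma). TXN, thioredoxin, was near 0 at 0.03 (adjusted p = 0.577 by limma) and turned to -0.22 with TPM as deposited (adjusted p = 0.00397 by limma). GSR, glutathione reductase, rose by 0.31 (adjusted p = 0.00126 by limma) but by 0.06 with TPM as deposited, which did not pass the test (adjusted p = 0.317 by limma).

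Among the other glutathione, thioredoxin and peroxide enzymes, 20 of 22 genes were tested and 18 passed, 13 higher and 5 lower, against 54.3% of all genes tested, 28.5% higher and 25.9% lower. Their median log2 fold change was 0.39. With TPM as deposited, 12 rose and 7 fell, against 16.3% and 40.3% of all genes. The mitochondrial enzymes TXN2, TXNRD2 and SOD2 rose by 1.10, 1.04 and 1.31 (adjusted p = 1.09e-06, 1.83e-05 and 5.23e-06 by limma). Cytosolic SOD1 rose by 0.60 (adjusted p = 2.14e-06 by limma), and GPX4, which reduces lipid peroxides, by 0.34 (adjusted p = 5.19e-05 by limma). CHAC1, which degrades glutathione, was at 146.98, 143.46 and 136.39 TPM with shCtrl, against 13.78, 14.23 and 13.83 TPM in the KD. It had the largest fall of the list (log2 fold change -3.02, adjusted p = 8.79e-08 by limma), followed by SESN2, a stress-induced sestrin (-1.73, adjusted p = 5.36e-07 by limma). CHAC1 and SESN2 are, like SLC7A11, known ATF4 targets, but whether ATF4 had a part in these falls was not tested. TXNIP, the inhibitor of thioredoxin, did not exceed 0.2 TPM and was not tested.

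Genes of iron and heme handling moved both ways around HMOX1 and the ferritins. Of 17 genes, 16 were tested and 10 passed, 5 higher and 5 lower, which lay near the 54.3% of all genes tested that passed, 28.5% higher and 25.9% lower. The list had a median log2 fold change of 0.03. With TPM as deposited, 3 rose and 9 fell, against 16.3% and 40.3% of all genes. HMOX2, the constitutive heme oxygenase, rose by 1.03 (adjusted p = 8.51e-06 by limma), while ALAS1, the first enzyme of heme synthesis, fell (-0.65, adjusted p = 1.59e-05 by limma), as did the heme transporter SLC48A1 (-0.72, adjusted p = 7.44e-04 by limma). NCOA4, the receptor for ferritin autophagy, rose by 0.72 (adjusted p = 9.19e-06 by limma) and PCBP1, which delivers iron to ferritin, by 0.75 (adjusted p = 1.89e-06 by limma). The iron exporter SLC40A1 was low, at 1.90, 1.23 and 1.78 TPM with shCtrl, against 0.21, 0.14 and 0.19 TPM in the KD (log2 fold change -1.06, adjusted p = 6.68e-04 by limma). TFRC, the transferrin receptor, rose by 0.18 after scaling (adjusted p = 0.00205 by limma) but was at -0.06 with TPM as deposited (adjusted p = 0.127 by limma), so its direction rested on the scaling.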

How the data were processed

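Per the labels, poly-A RNA of HCT116 cells was sequenced in 3 shCtrl and 3 GMDS-AS1 shRNA2 libraries as read pairs. The submitters' processing notes name Trimmomatic 0.27, TopHat2 2.1.1 and GRCh38.p13, and the study's methods name Cufflinks and RSEM. The annotation is not given in the sources used here. The authors deposited 1 TPM per Ensembl gene and library, so no count model was used. Up to 20 lines per file, without a value or a valid Ensembl gene identifier, were left out.

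Genes with at least 0.5 TPM in 3 libraries were kept. TPM was scaled by an unweighted trimmed mean of log ratios (30% of ratios and 5% of means trimmed), and log2(scaled TPM + 1) was fitted by group with limma 3.58.1 (R 4.3.3). The prior variance followed mean expression, and replicates were not blocked. This scale understates changes of low genes. The scaling factors were lower in the KD by 0.25 (log2), or -0.25 as KD minus shCtrl. Ratios were tested with exact permutations in scipy 1.17.1. The fit was also run on simulated data with planted changes of more than 2-fold, scored at 2-fold and adjusted p under 0.05. That run does not cover the smaller changes called here. Positions, UTRs and gene types came from GENCODE v29 and promoters from RefSeq. The share of TPM from the mitochondrial genome was 15.1% to 16.5%.

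The members and lists were chosen with earlier results of these data known. All 9 members were named, and from each list the 6 largest log2 fold changes that passed, with KEAP1, BACH1, MAFF, MAFG, SQSTM1, SLC7A11, TXN, GSR, TFRC, NCOA4, GPX4 and TXNIP. A result under this rule is not reported here, although it is part of the counts. Alternatives covered the scaling, mitochondrial genes, pseudocount, filter, variance trend, replicate block and leaving out each library.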

Additional observations from a re-analysis of the deposited data

How the results depend on the processing

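Of 126 alternative log2 fold changes of the 9 genes, 115 kept their direction and their side of the threshold. HMOX1, FTL, TXNRD1, NQO1, NFE2L2 and SRXN1 did so under every alternative run. The GCLC log2 fold change was -0.056 with TPM as deposited, -0.047 when TPM was recomputed without mitochondrial-genome genes and 0.089 with upper-quartile scaling, the last not past the threshold. The GCLM log2 fold change was -0.192, -0.187 and -0.057 under TPM as deposited, TPM without mitochondrial-genome genes and upper-quartile scaling. Leaving out 1 library at a time gave log2 fold changes of 0.14 to 0.22 for GCLC, of -0.047 to 0.15 for GCLM and of 0.12 to 0.41 for FTH1. At 2-fold, 2 members passed, SRXN1 with HMOX1, with TPM as deposited, with upper-quartile scaling and without mitochondrial-genome genes, and 1 to 2 passed when a library was left out, with 2 without shCtrl replicate 1 or shCtrl replicate 3. Libraries with the same number did not deviate together (correlations of 0.03, -0.04 and 0.01), and with the replicate block 7 members passed, 1 of them at 2-fold, with no other call of a member changed. Among the lists, the block left 9 iron and heme genes called in place of 10 and 17 glutathione, thioredoxin and peroxide enzymes in place of 18. Over all alternatives the counts called ranged from 15 to 17 for the further NRF2 targets, from 8 to 10 for the regulators, from 7 to 12 for iron and heme handling and from 16 to 19 for the glutathione, thioredoxin and peroxide enzymes. The causes were not tested. TPM keeps no read number, so counting error could not be given.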
